A study of Mus musculus with 7 samples.

Results

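The genes described here are the insulin-like growth factor Igf1, 6 genes of IGF binding proteins (Igfbp2 to Igfbp7), the pappalysins Pappa and Pappa2, and the protease Htra1. They were taken by name from the gene count table of sorted cancer-associated fibroblasts (CAFs), and 10 of 10 were among its 12771 genes. The CAFs came from orthotopic pancreatic tumors of C57BL/6 mice (C57BL/6 J in the study's methods), males aged 8 weeks, and were collected 2 to 3 weeks after injection of KPC cells, a mouse pancreatic cancer line. The cancer cells had been transduced with lentivirus and selected with puromycin. They carried a non-targeting hairpin RNA (shControl, 3 libraries, replicates 1, 2 and 4) or a hairpin against Brca2 (shBrca2, 4 libraries, replicates 1, 2, 3 and 4). The hairpin was in the cancer cells and the RNA was from the fibroblasts, so the RNA of these libraries does not check the silencing. Live cells had been gated as CD45-, CD31-, EpCAM- and PDPN+ (podoplanin), and their 3′ transcript ends were sequenced.

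IGF1 is a secreted growth factor that signals through the receptor IGF1R, and most of it outside cells is held by IGF binding proteins that control its access to the receptor. Pappalysins are secreted metalloproteases that release IGF by cutting binding proteins: PAPPA cuts IGFBP4 and IGFBP5, and PAPPA2 cuts IGFBP3 and IGFBP5. HTRA1 is a secreted serine protease for which IGFBP5 is a known substrate. IGFBP7 binds IGF weakly and insulin more readily than the other carriers do, and IGFBP6 prefers IGF2 to IGF1. Fibroblasts are a main source of several of these proteins in tissues.

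Total counts were between 1898679 and 5990579 per library. 10 of 10 fibroblast markers were in the table, with summed normalized counts of 125620 to 144438 in shControl and 100464 to 120032 in shBrca2, and Dcn and Lum were called lower. Markers of other cells were also present. The summed level of the epithelial and tumor cell list (5 of 8 genes in the table) was 360 to 1044 in shControl and 1303 to 1861 in shBrca2. Its keratin genes Krt8, Krt18 and Krt19 were called higher, while Cdh1 and Cldn7 were not called. Epcam, Cldn4 and Esrp1 were not in the table, and Krt19 is also in the mesothelial list. The summed level of the macrophage list (7 of 8) was 265 to 305 in shControl and 404 to 433 in shBrca2. Mesothelial markers (9 of 10) summed to 932 to 3021 and 2557 to 3048, pericyte markers (8 of 8) to 750 to 1300 and 1273 to 1680, endothelial markers (5 of 8) to 101 to 153 and 144 to 214, and acinar markers (6 of 7) to 150 to 247 and 99.8 to 162. Members of the last 2 lists did not move together. Of the 5 endothelial genes Flt1 was called higher and 3 others had lower, non-overlapping values in shBrca2, with a median log2 fold change of -1.11. Of the 6 acinar genes Cela1 was called higher and Cpa1, Cela2a and Prss2 lower, 5 did not overlap in the lower direction, and the median was -2.19. Calls in the macrophage, mesothelial and pericyte lists were all higher: Csf1r and C1qa for macrophages, Krt19 and Krt7 for mesothelium, and Notch3 and Des for pericytes. Of the genes for the proteins the sort excluded, Pecam1 had 1.95 to 17.7 normalized counts in shControl and 0 to 1.72 in shBrca2. Ptprc and Epcam were looked for and were not in the count table. Every gene in the table reached 6 counts or more in some library, so none could be at 0 in all 7. The part of other cells in the values below was not tested, and in these bulk samples fewer cells of a type and less RNA per cell cannot be told apart.

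Promoter sequences are shown for 4 genes that differed in response: Igfbp4 and Igfbp7, which were called lower, Igfbp3, which was not called, and Pappa2, which was called higher. Each is the 250 bases before a RefSeq start site, 5′ to 3′ on the gene's strand, in GRCm38.p6, the assembly also known as mm10. Capitals mark the searched motifs, on either strand: the core of the hypoxia response element (ACGTG or GCGTG), the paired heat shock unit (GAANNTTC or TTCNNGAA) and the TATA box (TATAAA). The windows lie at chr11:99040994-99041243 (Igfbp4, plus strand), chr5:77408046-77408295 (Igfbp7, minus strand), chr11:7213924-7214173 (Igfbp3, minus strand) and chr1:158958176-158958425 (Pappa2, minus strand).
Igfbp4: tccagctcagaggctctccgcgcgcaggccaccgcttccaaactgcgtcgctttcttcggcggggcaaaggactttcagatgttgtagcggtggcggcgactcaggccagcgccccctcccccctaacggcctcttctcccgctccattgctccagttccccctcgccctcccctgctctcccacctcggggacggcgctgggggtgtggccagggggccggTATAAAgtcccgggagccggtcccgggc
Igfbp7: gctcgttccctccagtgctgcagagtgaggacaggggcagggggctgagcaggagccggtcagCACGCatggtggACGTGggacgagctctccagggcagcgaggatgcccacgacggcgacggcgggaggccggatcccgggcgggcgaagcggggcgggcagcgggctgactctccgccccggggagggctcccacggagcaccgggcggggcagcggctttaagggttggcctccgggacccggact
Igfbp3: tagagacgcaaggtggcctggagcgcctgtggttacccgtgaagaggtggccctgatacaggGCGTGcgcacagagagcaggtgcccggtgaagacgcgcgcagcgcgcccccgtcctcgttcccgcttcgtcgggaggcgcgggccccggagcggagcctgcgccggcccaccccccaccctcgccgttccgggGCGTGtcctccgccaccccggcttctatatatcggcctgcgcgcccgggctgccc
Pappa2: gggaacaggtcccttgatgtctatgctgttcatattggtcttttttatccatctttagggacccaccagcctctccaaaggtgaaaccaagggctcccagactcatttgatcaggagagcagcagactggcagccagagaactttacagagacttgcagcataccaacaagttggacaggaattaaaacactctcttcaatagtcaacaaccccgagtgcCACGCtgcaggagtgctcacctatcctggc

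Positions are counted back from the start site. Of the printed windows, those of Igfbp4, Igfbp3 and Pappa2 lie inside the gene spans given below and precede internal start sites. That of Igfbp7 lies just before its gene span. The Igfbp4 window held a TATAAA at -28 and no other searched motif. The Igfbp7 window held a CACGC, the reverse complement of GCGTG, at -187 and an ACGTG at -175. The Igfbp3 window held GCGTG at -188 and -55, and the Pappa2 window CACGC at -30. A hypoxia core stood in the windows of 5 of the 9 genes with a RefSeq promoter entry (Igf1, Igfbp2, Igfbp3, Igfbp7 and Pappa2), genes called lower, called higher and not called among them. It stood in 38.6% of all 32851 promoter windows of this length. The heat shock unit was found in the window of Igfbp5, at -9, against 12.8% of all windows, and TATAAA in those of Igfbp4 and Igfbp6, against 12.4%. Pappa had no promoter entry. A match is a description of the sequence only.

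The word called is used for genes that passed DESeq2's likelihood ratio test over all genes at an adjusted p below 0.1, with a log2 fold change beyond 0.5 in size and more than 5 normalized counts on average. By this rule 8 of the 10 genes were called, 2 higher (Pappa and Pappa2) and 6 lower (Igf1, Igfbp4, Igfbp5, Igfbp6, Igfbp7 and Htra1) in CAFs of shBrca2 tumors. Over all 12768 genes tested the call was made for 9.04%, with 3.77% called higher and 5.27% called lower. The median log2 fold change, shBrca2 over shControl, was -0.64 over the 10 genes and 0.01 over all genes. Groups did not overlap for 5 of the 10 genes, 2 higher and 3 lower, against 17.1% of all genes in either direction, 7.78% higher and 9.29% lower. Each group held as many mice as libraries, by the description of this sequencing, although the labels tie no library to a mouse. The p-values measure the spread between these 7 libraries.

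**Figure D1:**
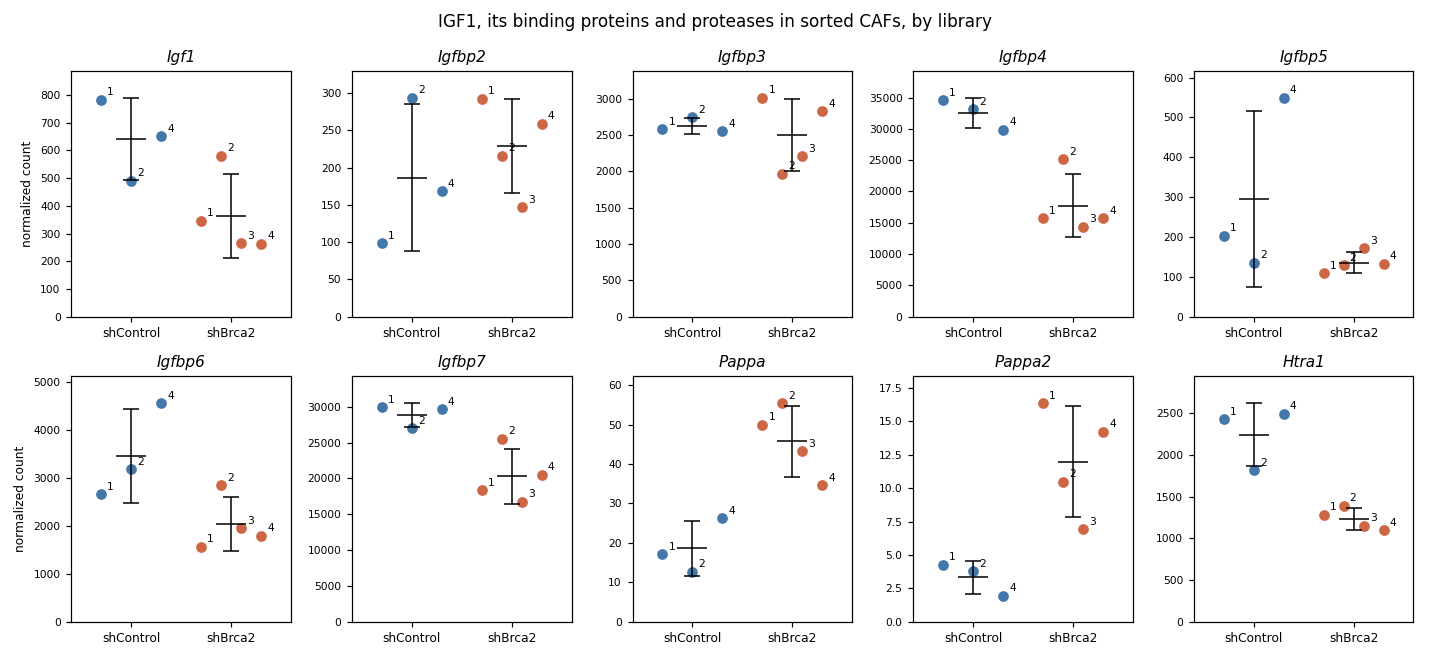
Normalized counts (y axis, separate linear scale from 0 in each panel) of the 10 genes in each library, with points numbered by replicate, the group mean as the long bar and 1 SD as the whiskers (shControl n = 3, shBrca2 n = 4). Igfbp4, Igfbp7 and Htra1 are lower in all 4 shBrca2 libraries than in any shControl library, and Pappa and Pappa2 are higher.

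The ligand gene Igf1 (chr10:87858265-87937047, plus strand) was lower in CAFs of shBrca2 tumors. Values by library are given below in replicate order, which is 1, 2 and 4 for shControl. Normalized counts of Igf1 were 784, 490 and 652 in shControl and 347, 582, 264 and 262 in shBrca2. The groups overlapped, since shBrca2 replicate 2 lay above shControl replicate 2. The mean fell from 642 ± 148 (SD, n = 3) to 364 ± 151 (SD, n = 4), which is 1.76-fold lower. On the log2 scale the change was -0.81 ± 0.29 (SE, DESeq2 adjusted p = 0.062). The call was lost without any 1 of shControl replicates 1 and 4 and shBrca2 replicates 1, 3 and 4, with adjusted p between 0.14 and 0.30, and edgeR gave an adjusted p of 0.11. Without shBrca2 replicate 2 the log2 fold change was -1.14 (DESeq2 adjusted p = 4.7e-05).

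Among the binding proteins, Igfbp4 had the lowest adjusted p. IGFBP4 holds IGF away from its receptor and is the classic substrate of PAPPA. The gene lies at chr11:99040005-99052655 on the plus strand, and its promoter is the first of those printed above. Its normalized counts were 34552, 33109 and 29835 in shControl and 15737, 25139, 14352 and 15691 in shBrca2. All 4 shBrca2 libraries lay below the lowest shControl library, and shBrca2 replicate 2 stood closest to it. The mean fell from 32499 ± 2417 to 17730 ± 4981, or 1.83-fold, with a log2 change of -0.87 ± 0.21 (DESeq2 adjusted p = 0.0015). Igfbp4 was called lower in each alternative run, with log2 fold changes between -1.09 and -0.77.

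Igfbp7 (chr5:77349240-77408045, minus strand) was lower by a smaller step. It had 29912, 26989 and 29650 normalized counts in shControl and 18316, 25512, 16753 and 20500 in shBrca2. The groups did not overlap, although shBrca2 replicate 2 came near shControl replicate 2. The mean fell from 28850 ± 1617 to 20270 ± 3817, or 1.42-fold, with a log2 change of -0.51 ± 0.17 (DESeq2 adjusted p = 0.049) that was close to the fold threshold. The call was lost without any 1 of shControl replicates 1 and 4 and shBrca2 replicates 1, 3 and 4 (adjusted p between 0.14 and 0.27), with edgeR (0.12) and with library totals as size factors (-0.40, adjusted p = 0.12). Exons of Igfbp7 share 747 of 5449 bases (13.7%, GENCODE vM39 on GRCm39) with Polr2b on the opposite strand, and whether counting used strand was not given in the sources used here.

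Igfbp6 (chr15:102144186-102149512, plus strand) had 2660, 3178 and 4553 normalized counts in shControl and 1569, 2846, 1952 and 1797 in shBrca2. The groups overlapped through shBrca2 replicate 2, and shControl replicate 4 stood above the rest. The mean fell from 3463 ± 978 to 2041 ± 559, or 1.70-fold, with a log2 change of -0.76 ± 0.25 (DESeq2 adjusted p = 0.034). The call was lost without shControl replicate 4 (-0.52, adjusted p = 0.29), shBrca2 replicate 1 (0.16) or shBrca2 replicate 4 (0.13).

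Igfbp5 (chr1:72858065-72874865, minus strand), whose protein is a substrate of both pappalysins and of HTRA1, had 203, 135 and 549 normalized counts in shControl and 108, 128, 171 and 132 in shBrca2. 1 library, shControl replicate 4, held most of the difference, and the other 6 libraries lay between 108 and 203. The mean went from 296 ± 222 to 135 ± 26.2, with a log2 change of -1.14 ± 0.39 (DESeq2 adjusted p = 0.046). Without shControl replicate 4 the log2 fold change was -0.35 (adjusted p = 0.72), and the call was also lost without shBrca2 replicate 1 (0.14) or replicate 2 (0.42). The value of Igfbp5 thus rests on shControl replicate 4.

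The remaining carriers, Igfbp2 and Igfbp3, were not called. Igfbp3 encodes the main carrier of IGF in blood, and its gene lies at chr11:7206086-7215498 on the minus strand. It is 3539 bases from Igfbp1, which was not in the count table. Igfbp3 had 2576, 2741 and 2548 normalized counts in shControl and 3007, 1967, 2204 and 2823 in shBrca2, with shBrca2 libraries on both sides of the shControl range. The log2 change of Igfbp3 was -0.07 ± 0.18, with a 95% interval of -0.43 to 0.29 (DESeq2 adjusted p = 0.91). The sign turned with library totals as size factors (0.056) and without shBrca2 replicate 2 (0.029).

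Igfbp2 (chr1:72824480-72852474, plus strand) lies 5590 bases from Igfbp5. It had 98.2, 293 and 168 normalized counts in shControl and 293, 216, 147 and 259 in shBrca2. The shControl libraries were spread over the whole range of the shBrca2 libraries. Its log2 change was 0.30 ± 0.34, with an interval of -0.36 to 0.97 (DESeq2 adjusted p = 0.74), and was -0.0031 without shControl replicate 1. The interval of Igfbp3 stays within the fold threshold in both directions, and that of Igfbp2 passes it upward.

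Counts of Igfbp2 to Igfbp7 together made up 1.99%, 1.84% and 1.91% of the library in shControl and 1.23%, 1.60%, 1.08% and 1.29% in shBrca2. The share was 1.91% ± 0.08 in shControl and 1.30% ± 0.22 in shBrca2, and the groups did not overlap. Igfbp4 and Igfbp7 alone made up 1.73% ± 0.09 and 1.15% ± 0.21. Neither gene's groups overlapped, so the separation of the sum largely restates theirs. Within the sum of Igfbp2 to Igfbp7, Igfbp4 took 44.3% to 49.8% of the counts in shControl and 38.1% to 45.0% in shBrca2, ranges that overlapped. Igfbp7 took 40.6% to 44.1% in shControl and 45.7% to 49.8% in shBrca2. Igfbp3 took 3.68% to 4.13% in shControl and 7.70%, 3.52%, 6.19% and 6.85% in shBrca2. These shares have no test and describe counts at 3′ ends, not protein.

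**Figure D2:**
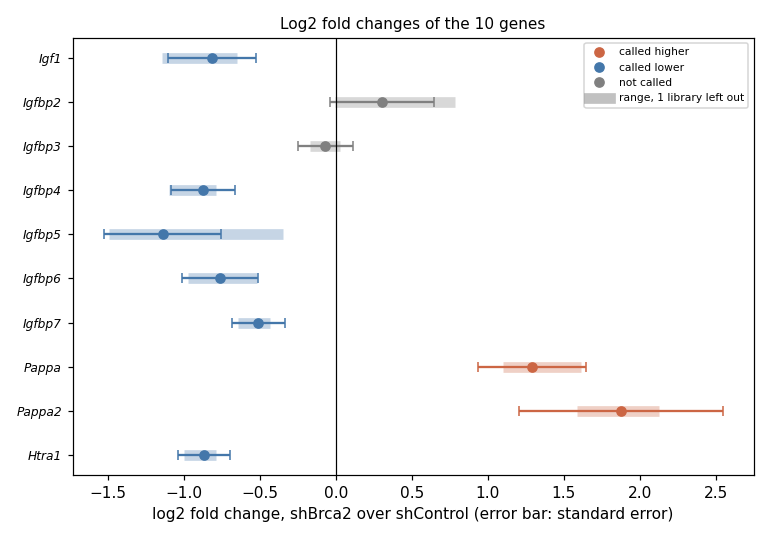
Log2 fold changes (x axis, shBrca2 over shControl) of the 10 genes, with standard errors as whiskers and, as a pale bar, the range when each of the 7 libraries was left out in turn. Igfbp4 and Htra1 keep a narrow range below 0, Igfbp5 reaches -0.35, and the ranges of Igfbp2 and Igfbp3 cross 0.

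Both pappalysin genes were called higher, and both were low in counts. Pappa (chr4:65124174-65357509) had 17.1, 12.7 and 26.3 normalized counts in shControl and 49.9, 55.4, 43.2 and 34.6 in shBrca2. All 4 shBrca2 libraries lay above the highest shControl library. The mean rose from 18.7 ± 6.94 to 45.8 ± 8.98, or 2.45-fold, with a log2 change of 1.29 ± 0.35 (DESeq2 adjusted p = 0.0076). The raw counts summed to 57 in shControl and 212 in shBrca2, and the ratio scaled by size factors was 2.50, with a 95% interval of 1.86 to 3.42 for counting error only. The call held in each of the 7 fits with 1 library left out, with adjusted p between 0.0077 and 0.098.

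Pappa2 (chr1:158711727-158960451, minus strand) had 4.27, 3.80 and 1.95 normalized counts in shControl and 16.4, 10.5, 6.91 and 14.2 in shBrca2. These were 5, 3 and 2 raw counts in shControl and 19, 18, 4 and 14 in shBrca2. The normalized counts did not overlap, but shBrca2 replicate 3, the shallowest library, rested on 4 counts. The mean rose from 3.34 ± 1.23 to 12.0 ± 4.17, or 3.66-fold, with a log2 change of 1.87 ± 0.67 (DESeq2 adjusted p = 0.055). Summed counts were 10 and 55, and the scaled ratio was 3.70, with a counting interval of 1.87 to 8.15. The call was lost in 6 of the 7 fits with 1 library left out, with adjusted p between 0.11 and 0.33, and held without shBrca2 replicate 3. Exons of Pappa2 share 310 bases (3.01%) with 1600012P17Rik on the same strand. Opposite-strand overlap was 3.98% of exon bases for Igfbp3 and 0.889% for Pappa, and was not found for Igf1, Igfbp2, Igfbp4, Igfbp5, Igfbp6 or Htra1.

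The serine protease gene Htra1 (chr7:130936203-130985658, plus strand) fell, opposite to the pappalysin genes. It had 2423, 1813 and 2491 normalized counts in shControl and 1281, 1392, 1149 and 1097 in shBrca2. The groups did not overlap, and the 4 shBrca2 libraries were close together. The mean fell from 2242 ± 374 to 1230 ± 133, or 1.82-fold, with a log2 change of -0.87 ± 0.17 (DESeq2 adjusted p = 3.7e-05). This was the lowest adjusted p of the 10 genes and the 126th lowest p of all genes tested. Htra1 was called lower in each alternative run, with log2 fold changes between -0.999 and -0.76.

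Ratios of a protease to a known substrate within the same library do not depend on the size factors. They are given here without a test. Pappa counts per 10000 Igfbp4 counts were 4.94, 3.82 and 8.80 in shControl and 31.7, 22.0, 30.1 and 22.0 in shBrca2. The log2 ratio went from -10.74 ± 0.58 to -8.55 ± 0.29, a difference of 2.19 or 4.57-fold, and the groups stood apart. Here the protease gene was called higher and the substrate gene lower. Neither gene's groups overlapped, so the separation of this ratio was fixed by those changes and restates them.

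Pappa2 counts per 100 Igfbp5 counts were 2.10, 2.80 and 0.355 in shControl and 15.1, 8.18, 4.04 and 10.8 in shBrca2. The log2 ratio, with 1 added to each count, differed by 2.46 and the groups stood apart. With 1 library left out the difference ran from 1.62, without shControl replicate 4, to 3.02, without shControl replicate 2. The log2 ratio of Pappa2 to Igfbp3 went from -9.28 ± 0.43 to -7.61 ± 0.26, a difference of 1.66, which was 1.11 when 5 was added to each count. In this pair the substrate gene was not called, so the difference largely restates the change of Pappa2. Both ratios rest on 2 to 19 raw counts of Pappa2 per library, and its own groups did not overlap.

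The ratio of Htra1 to Igfbp5 did not separate the groups. Htra1 counts per Igfbp5 count were 11.9, 13.4 and 4.54 in shControl and 11.8, 10.9, 6.72 and 8.30 in shBrca2, with shControl replicate 4 the lowest. The log2 ratio was 3.16 ± 0.85 in shControl and 3.19 ± 0.37 in shBrca2, a difference of 0.03 that turned to -0.46 without shControl replicate 4. Igf1 counts per 100 counts of Igfbp2 to Igfbp7 were 1.12, 0.737 and 0.968 in shControl and 0.889, 1.04, 0.743 and 0.636 in shBrca2. The ligand and the summed carriers were both lower in shBrca2, and their log2 ratio differed by -0.19, with overlapping groups.

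**Figure D3:**
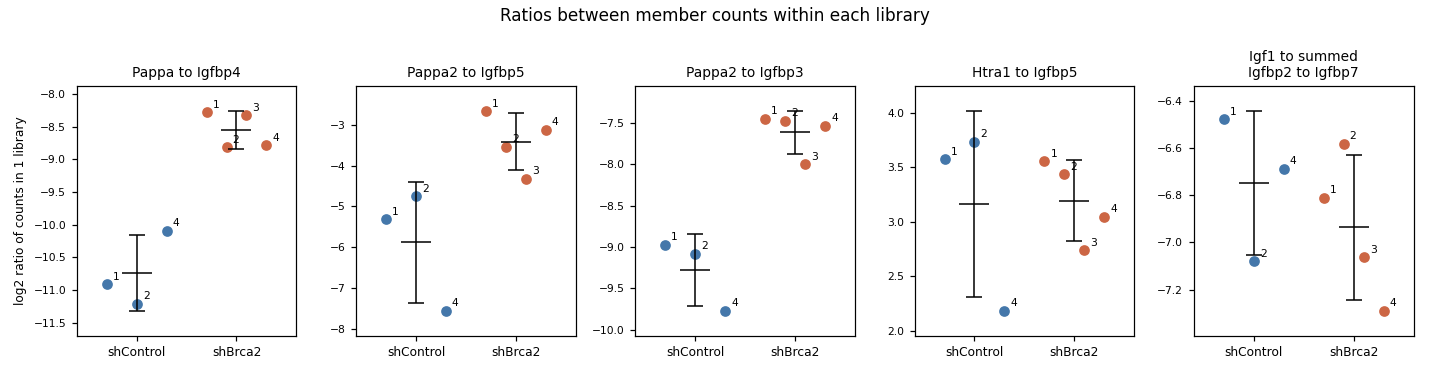
Log2 ratio of raw counts, with 1 added to each, within each library (y axis, separate scale per panel), with points numbered by replicate, the group mean as the long bar and 1 SD as whiskers (shControl n = 3, shBrca2 n = 4). The 3 ratios of a pappalysin to a binding protein stand apart between the groups, and the ratios of Htra1 to Igfbp5 and of Igf1 to summed carriers overlap. The separation for Pappa to Igfbp4 follows from the separate groups of both genes. The groups of Pappa2 are also separate, so its ratios carry that change.

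The 6 genes called lower did not order the libraries in the same way, but 1 library recurred. Within shBrca2, replicate 2 was the highest library for 5 of the 6 (Igf1, Igfbp4, Igfbp6, Igfbp7 and Htra1), and replicate 3 was the highest for Igfbp5. Within shControl, replicates 1 and 4 were each the highest for 3 genes and replicate 2 was the lowest for 4. The mean of the 6 genes, as log2(normalized count + 1) after each gene's own mean was removed, was 0.45, 0.18 and 0.74 in shControl and -0.48, 0.04, -0.45 and -0.48 in shBrca2. For Pappa, shBrca2 replicate 2 was also the highest library, so that it was not the least changed library for this gene.

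Markers of inflammatory CAFs, a fibroblast state known for cytokine and complement genes, varied in a similar order. 9 of the 10 listed genes were called lower, against 5.27% of all genes tested. These were C3, Col14a1, Ly6c1, Cxcl1, Cxcl12, Has1, Clec3b, Pi16 and Dpt. The cytokine gene Il6, also in the list, was not called. The summed normalized counts of the list were 58551 to 89659 in shControl and 18447 to 41692 in shBrca2. The same centred mean over this list was 1.18, 0.34 and 1.10 in shControl and -1.03, 0.14, -0.61 and -1.13 in shBrca2. In both sets shControl replicate 2 was the lowest of its group and shBrca2 replicate 2 the highest of its group. The first set was picked by its lower calls, and most of this list was called lower. The difference between the groups in both means therefore largely restates those calls. The share of this fibroblast state in the change of Igf1 and its binding proteins was not tested.

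**Figure D4:**
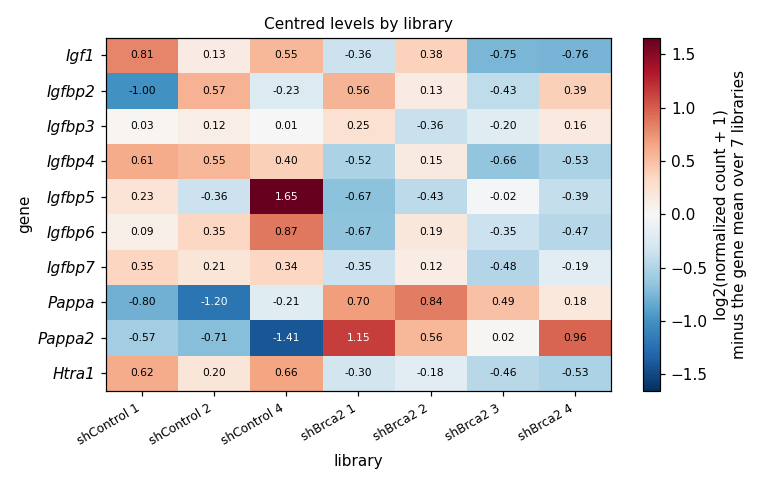
Level of each of the 10 genes (rows) in each library (columns), as log2(normalized count + 1) minus the gene's mean over 7 libraries, printed in each cell and colored from blue (low) to red (high). The 6 genes called lower are mostly blue in shBrca2 replicates 1, 3 and 4. In shBrca2 replicate 2, Igf1, Igfbp4, Igfbp6 and Igfbp7 lie above their gene means (0.12 to 0.38), and Igfbp5 and Htra1 below. Pappa and Pappa2 lie below their means in shControl and above them in shBrca2.

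Of 36 other genes of the IGF pathway that were listed by hand, 31 were in the table. 1 of these 31 was called higher, 4 were called lower and 26 were not called. For comparison, 3.77% of all genes tested were called higher and 5.27% were called lower. The median change in this list was -0.25 on the log2 scale. None of the receptor genes for IGF itself was called. Igf1r, the signaling receptor of IGF1, differed between groups by -0.25 ± 0.30 on the log2 scale (DESeq2 adjusted p = 0.76), Igf2r, which clears IGF2, by -0.34 ± 0.20 (0.40), and Insr, the insulin receptor, by 0.18 ± 0.38 (0.89). The orphan relative Insrr was called lower, from 111 ± 42.3 to 46.0 ± 32.5 normalized counts (-1.24 ± 0.44, adjusted p = 0.061), with overlapping groups. That call was lost with edgeR (0.12) and without shControl replicate 4 or shBrca2 replicate 1, 3 or 4 (adjusted p between 0.14 and 0.33).

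The second ligand gene, Igf2, varied more within the groups than between them. It had 65.8, 19.0 and 5.84 normalized counts in shControl and 35.3, 10.5, 43.2 and 25.4 in shBrca2, and its log2 change was -0.11 ± 0.64 (DESeq2 adjusted p = 0.95). Among the adaptors, Irs1 (0.05 ± 0.41, adjusted p = 0.96) and Irs2 (-0.41 ± 0.28, 0.49), which relay the receptor's signal, were not called. Grb14, an adaptor that inhibits insulin receptor signaling, was called lower, from 32.7 ± 7.24 to 16.4 ± 5.49 normalized counts (-1.02 ± 0.38, adjusted p = 0.082), with no overlap. That call was lost in 6 of the 7 fits with 1 library left out, all but the fit without shBrca2 replicate 3, and with library totals as size factors (0.14). Exons of Grb14 share 588 bases (7.67%) with Gm74641 on the opposite strand.

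Stanniocalcins bind pappalysins and inhibit them, and neither of their genes was called. The log2 change of Stc1 was -0.01 ± 0.37 (DESeq2 adjusted p = 0.95, 95% interval -0.74 to 0.71) and that of Stc2 was -0.29 ± 0.24 (0.61, interval -0.76 to 0.19). Stc2 had 76.9, 77.2 and 56.4 normalized counts in shControl and 56.8, 54.2, 57.0 and 62.0 in shBrca2. The intervals leave room for changes over the fold threshold in both genes.

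Of the 10 other protease genes tested whose products are known to cut binding proteins, Htra3 and Adamts1 were called lower and none was called higher. Over all genes tested, 5.27% were called lower and 3.77% higher. Groups of 1 of these 10 genes did not overlap in the higher direction, and those of 3 in the lower direction. Over all genes these shares were 7.78% and 9.29%. Htra3, a serine protease related to HTRA1, had 4349, 3860 and 3804 normalized counts in shControl and 1799, 2867, 1782 and 1611 in shBrca2. The groups did not overlap, and shBrca2 replicate 2 was again the highest of its group. The mean fell from 4004 ± 300 to 2015 ± 574, with a log2 change of -0.99 ± 0.22 (DESeq2 adjusted p = 0.00026), and the call held in each alternative run. Adamts1, a matrix metalloprotease, fell from 1316 ± 265 to 883 ± 186 (-0.58 ± 0.21, adjusted p = 0.078). That call was lost with edgeR (0.11), with library totals (0.15) and without shControl replicate 1 or 4 or shBrca2 replicate 1 or 4 (adjusted p between 0.18 and 0.43).

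The gene called higher was Igf2bp2, which encodes a protein that binds IGF2 mRNA and other mRNAs. It had 79.4, 98.7 and 71.0 normalized counts in shControl and 128, 99.1, 206 and 125 in shBrca2. The groups did not overlap, but shControl replicate 2 and shBrca2 replicate 2 were nearly equal. Its log2 change was 0.73 ± 0.28 (DESeq2 adjusted p = 0.093), and the call was lost with edgeR (0.11) and in 5 of the 7 fits with 1 library left out, those without shControl replicate 1 or 4 or shBrca2 replicate 1, 3 or 4 (adjusted p between 0.17 and 0.36). The 4 genes of the growth hormone arm, through which growth hormone raises Igf1 in liver, were not called.

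**Figure D5:**
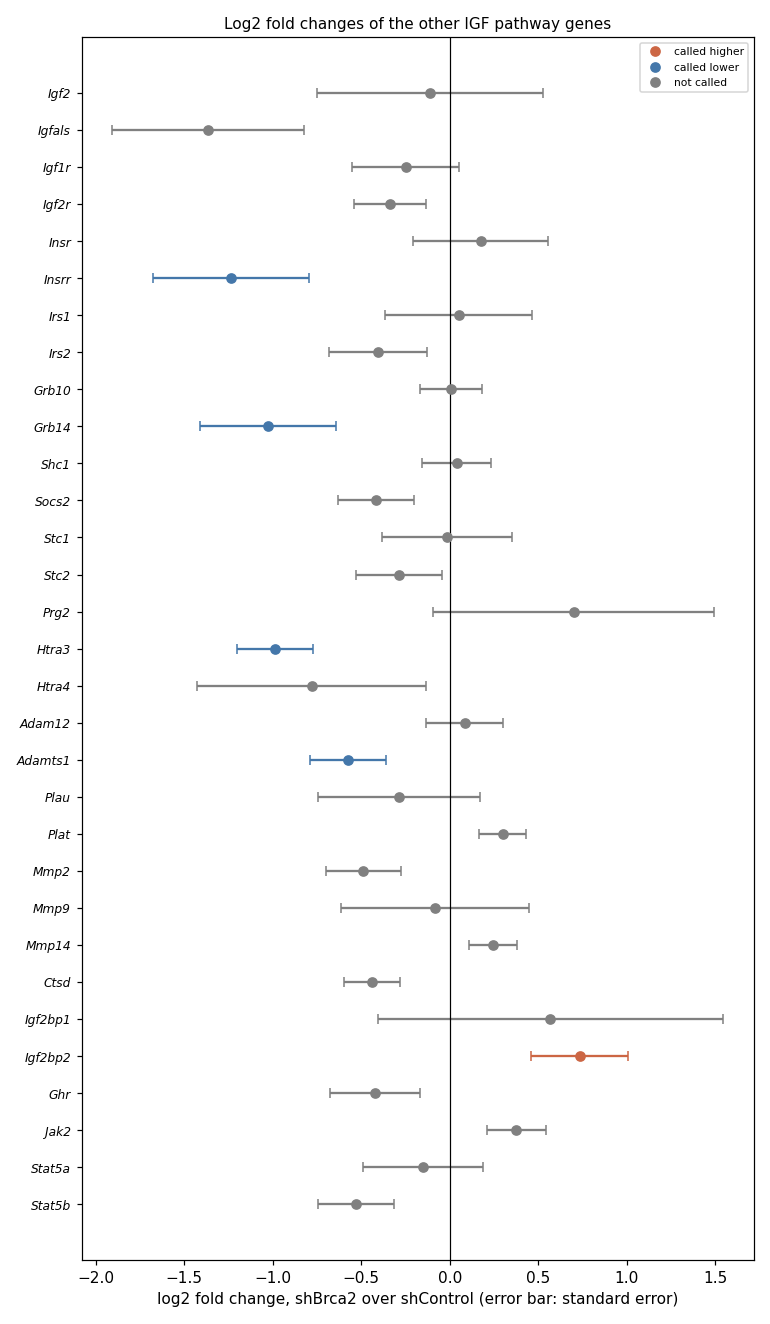
Log2 fold changes (x axis, shBrca2 over shControl) of the 31 other IGF pathway genes, with standard errors as whiskers and color for the call. Of the 4 genes called lower, Htra3 and Adamts1 have narrower errors than Insrr and Grb14, and Igf2bp2 is the gene called higher.

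The genes whose levels followed Igf1 most closely over the 7 libraries were sought among 6734 genes with a mean normalized count over 50, by the mean absolute difference of their centred log2 levels. They were Irak3 (0.08), Vgll3 (0.09), Srpx (0.11), Epdr1 (0.14) and Cryzl2 (0.14). All 5 were called lower in shBrca2, with log2 fold changes of -0.99, -0.91, -0.92, -1.11 and -0.79 and adjusted p of 0.017, 0.018, 0.019, 0.0019 and 0.022 in DESeq2. The genes most like Pappa, among 6735, were Cd2ap (0.16), Npl (0.17), Klf10 (0.20), Rbbp8 (0.20) and Acsl4 (0.22). All 5 were called higher, by 1.12, 1.07, 1.10, 0.91 and 0.89 on the log2 scale, with adjusted p of 0.0098, 0.00052, 0.00021, 0.0029 and 0.0015 in DESeq2. Likeness over 7 libraries in 2 groups largely restates the group difference, and is given as a description.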

How the data were processed

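RNA of sorted CAFs was measured in 7 libraries, grouped by the sample titles. The authors deposited raw counts per gene, as whole numbers that were not normalized. Per the labels, libraries were a variant of MARS-seq that reads 3′ ends. The submitters' processing notes name bcl2fastq, cutadapt, STAR 2.4.2a, HTSeq, DESeq2 and mm10. Annotation, strand and collapsing of molecular barcodes were not given in the sources used here, so counts may include PCR copies and intervals cover counting error only. Every pair of libraries differed by more than counting noise would give for independent counts, and PCR copies would also raise this difference.

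All genes were fitted with DESeq2 1.42.0 (R 4.3.3), using its median-of-ratios scaling, and group was tested by likelihood ratio, with no covariate. The call used the study's thresholds: Benjamini-Hochberg adjusted p under 0.1, absolute log2 fold change over 0.5 and mean normalized count over 5. 3 genes received no p. Errors are SE for fold changes and SD for means. Intervals of fold changes are 95% Wald intervals. Alternatives were edgeR 4.0.16, the Wald test, other size factors, filters, a replicate block and each library left out. The code was tested on simulated data.

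The members, lists and tests were chosen with earlier results of these data known. Named genes were the 10 members, each pathway gene that was called, 8 fixed pathway genes that were not, and the 5 genes most like Igf1 and Pappa. Coordinates and promoters are from RefSeq, GRCm38.p6, matched by symbol. Exon overlaps are from GENCODE vM39 on GRCm39, matched by symbol.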

Additional observations from a re-analysis of the deposited data

Results flagged for a closer look

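4 of 46 values tested had a library that stood apart from the other 3 of the shBrca2 group by Dixon's criterion, which chance meets in about 1 of 20 groups. In shBrca2 replicate 2, Igfbp4 was at 25139 normalized counts, while the nearest other library was at 15737. In the same library Htra3 was at 2867, with the nearest other at 1799, and Mmp2, a matrix metalloprotease gene that was not called, was at 8580, with the nearest other at 5472. The log2 ratio of Pappa2 to Igfbp3 was -8.00 in shBrca2 replicate 3, below the nearest other at -7.53. Pappa2 had 4 raw counts in that library. The cause was not tested. Groups of 3 libraries were not examined in this way.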

How the results depend on the processing

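Igfbp4, Htra1 and Htra3 kept their direction and call in all 14 alternatives. Calls of Igf1, Igfbp5, Igfbp6, Igfbp7 and Pappa2 were lost when single libraries were left out, as given beside each gene. The direction turned for Igfbp2 without shControl replicate 1 (-0.0031, against up to 0.79 with other libraries left out) and for Igfbp3 with library totals (0.056) and without shBrca2 replicate 2 (0.029), and the cause was not tested. Over all genes, 481 were called higher and 673 lower. With library totals as size factors the split was 708 and 502, since that scaling moved the median of all genes to 0.12. With 1 library left out, 261 to 610 genes were called higher and 354 to 695 lower, 1 to 2 and 2 to 6 of the 10 genes, and 0 to 1 and 1 to 6 of the pathway list. Leaving out shControl replicate 4 or shBrca2 replicate 1 left 2 lower calls among the 10 genes, and leaving out shBrca2 replicate 4 left 3. In the pathway list edgeR called 0 higher and library totals 2 lower. The log2 ratio of Pappa2 to Igfbp3 differed by 1.11 with 5 added to each count. That of Htra1 to Igfbp5 ran from -0.46 to 0.32 with 1 library left out, and was -0.46 with shControl replicate 4 left out, -0.089 with shBrca2 replicate 1 and -0.050 with shBrca2 replicate 2 left out.

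Replicate numbers gave no sign of pairing: deviations of same-numbered libraries correlated at -0.13, -0.17 and -0.18 over 6735 genes. Correlations of differently numbered pairs ran from -0.21 to 0.29. So few correlations cannot exclude pairing. With the replicate number as a block, on the 6 libraries other than shBrca2 replicate 3, the calls were 242 higher and 322 lower, 0 and 3 of the 10 genes, and 0 and 2 of the pathway list. Pappa lost its call in that fit (log2 fold change 1.34, DESeq2 adjusted p = 0.16). Low counts limit Pappa2, and 3 libraries limit the spread estimate in shControl.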
